A study of Mus musculus with 237 samples.

Results

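Among 71 single cells taken from the interstitium of embryonic mouse kidneys, 19 carried transcripts of Six2, the transcription factor that keeps nephron progenitors undifferentiated. They were chosen by a Six2 value of 1 RPKM or more (a read density corrected for gene length and for how many reads each cell gave), and the other 52 cells had less. The table holds 237 cells in all. The series asks how Pax2 bears on the boundary between the nephron and interstitial lineages, and its other cells come from wild-type and Pax2 mutant cap mesenchyme. Both classes described here are wild type by label, of age E18.5 (the embryonic day) and of mixed strain, were enriched by flow sorting and were captured one by one in a Fluidigm C1 device. Their titles carry FoxD1_GCE and a single date, and the labels do not spell out GCE or how the sort was gated. Of the Six2-positive cells, 7 came from the 22 cells of pool 2 and 12 from the 49 cells of pool 3, and of the Six2-negative cells 15 came from pool 2 and 37 from pool 3. For comparison, 62 of the 74 E18.5 wild-type cells labelled as cap mesenchyme and its derivatives, all of pool 2 and of another date, also had Six2 at 1 RPKM or more.

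The cap mesenchyme is a cluster of progenitors around each ureteric bud tip that renews itself and gives rise to the nephrons. Six2, Pax2, Eya1, Osr1, Sall1 and Wt1 are transcriptional regulators of these progenitors. The stroma around them descends largely from cells that express the forkhead factor Foxd1, and it produces fibrillar collagens, proteoglycans and vascular support cells. These lineages are classically held apart, so a cell that carries both kinds of transcript can be described by how much of each it holds.

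Six2 itself chose the classes, and its values are a description only. The Six2-positive cells ranged from 1.06 to 172 RPKM with a median of 24.6, and 14 of them had 10 RPKM or more. Just inside the threshold lay values of 1.06, 1.08 and 4.36, and just outside it lay 0.684, 0.455 and 0.455. Of the Six2-negative cells, 32 were at exactly 0 and 20 lay between 0 and 1 RPKM. The labels name no embryo, so all cells count as 1 sample and no test was made. Intervals given with shares treat cells as independent, so they do not bound the share in other embryos. Every SD below is the spread between cells, a gene counts as detected from 1 RPKM upward, and differences are Six2-positive minus Six2-negative means of log2(RPKM + 1). Because cells were split on Six2, genes known to accompany it were bound to differ, and such differences describe these cells without supporting anything further.

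The Six2 gene lies on the minus strand of mm10 chromosome 17 (85684268 to 85688254), and Cited1, which encodes a transcriptional coactivator of self-renewing progenitors and was among the genes that differed most, lies on chromosome X (102247440 to 102252163). Their promoters are shown because these are the gene that split the cells and a leading gene that moved with it. Each runs from 250 bases before to 50 after the transcription start in RefSeq (GRCm38.p6), with the TATA motif TATAAA in capitals. The Six2 window is chr17:85688205-85688504 and the Cited1 window, for the outermost of its starts, is chrX:102252132-102252431, both given on the minus strand.
Six2: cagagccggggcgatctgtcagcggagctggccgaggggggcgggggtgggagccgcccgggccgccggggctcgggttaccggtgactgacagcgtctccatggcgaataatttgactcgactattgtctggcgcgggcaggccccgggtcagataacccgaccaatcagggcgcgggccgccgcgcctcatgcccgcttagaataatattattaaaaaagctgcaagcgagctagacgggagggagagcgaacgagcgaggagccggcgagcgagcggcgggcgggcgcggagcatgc
Cited1: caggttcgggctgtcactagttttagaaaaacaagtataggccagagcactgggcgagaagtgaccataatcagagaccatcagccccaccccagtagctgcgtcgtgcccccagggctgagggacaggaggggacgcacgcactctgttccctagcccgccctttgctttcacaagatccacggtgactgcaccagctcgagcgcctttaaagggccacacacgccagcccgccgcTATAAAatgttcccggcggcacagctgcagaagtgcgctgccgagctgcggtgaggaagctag
The Cited1 window holds TATAAA, which 13.6% of the 32851 RefSeq promoters hold on either strand. Neither window holds the letters TCAGGTTTC, a form of the motif bound by Six2 and its relatives (0.429% of promoters), or CTTTGATC, a form of the TCF/LEF motif (0.938%). A match or its lack describes these letters only.

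The Six2-positive interstitium cells carried most of the nephron progenitor programme. Across 10452 genes detected in at least 10% of the 71 cells, 1677 (16%) were higher by 1 log2 unit or more in Six2-positive cells and 257 (2.46%) were lower, with a median difference of 0.33 over all genes. Of 14 progenitor genes, Six2 left out, 12 passed that filter and all of these were higher by 1 log2 unit or more. Several of them passed it mainly through the Six2-positive cells, so this count is a description. The members' median difference was 2.55. The mean over the 14 genes, here called the progenitor score, was 3.44 ± 1.04 in the 19 Six2-positive cells and 0.97 ± 0.45 in the 52 Six2-negative cells (SD). The 19 cells spanned 1.32 to 5.02 and the 52 spanned 0.21 to 3.25, so the classes overlapped at their edges.

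Several of these genes encode transcriptional regulators. Pax2 (chromosome 19, 44757394 to 44837869), which specifies the nephron lineage, ranged from 0 through a median of 4.22 to 24.6 RPKM in Six2-positive cells and from 0 through 0 to 1.27 RPKM in Six2-negative cells. It was detected in 17 of 19 Six2-positive cells (89.5%, exact 95% Clopper-Pearson interval 66.9 to 98.7) and in 1 of 52 Six2-negative cells (1.92%, 0.0487 to 10.3). The 2 Six2-positive cells without Pax2 were the 2 nearest the threshold. Eya1, a coactivator and phosphatase that partners Six2, had lowest, median and highest values of 0, 35.9 and 225 RPKM in Six2-positive cells and 0, 0 and 110.0 RPKM in Six2-negative cells, and was detected in 15 and 1 of them. Osr1, an early kidney field factor, was detected in 14 of 19 Six2-positive and 6 of 52 Six2-negative cells, and its median was 23.4 RPKM in Six2-positive and 0 in Six2-negative cells. Wt1, a zinc finger factor of progenitors and podocytes, was not restricted to 1 class: it was detected in 19 of 19 and 39 of 52 cells, with medians of 124 RPKM in Six2-positive and 19.2 RPKM in Six2-negative cells. Sall1, another zinc finger factor of the progenitors, was detected in 18 of 19 and 31 of 52 cells.

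Cited1 ranged from 0 through 121 to 623 RPKM in Six2-positive cells and from 0 through 0 to 70.7 RPKM in Six2-negative cells. It was detected in 16 of 19 Six2-positive and 5 of 52 Six2-negative cells, and the difference was 5.53. Crym, which encodes a thyroid hormone binding protein and marks the cap, was detected in 15 and 3 cells, and Itga8, the integrin alpha chain that receives nephronectin from the ureteric bud, in 15 and 8. Robo2, the Slit receptor, had a difference of 2.37, and Gdnf, the ligand that draws out the ureteric bud, one of 1.01. For Gdnf the difference was 0.05 in pool 2, 1.49 in pool 3 and -0.41 between cells with 5500 to 6700 genes, so its direction was not stable. Dpf3, a chromatin reader, was detected in 5 of 19 Six2-positive and 2 of 52 Six2-negative cells and did not pass the filter.

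**Figure D1:**
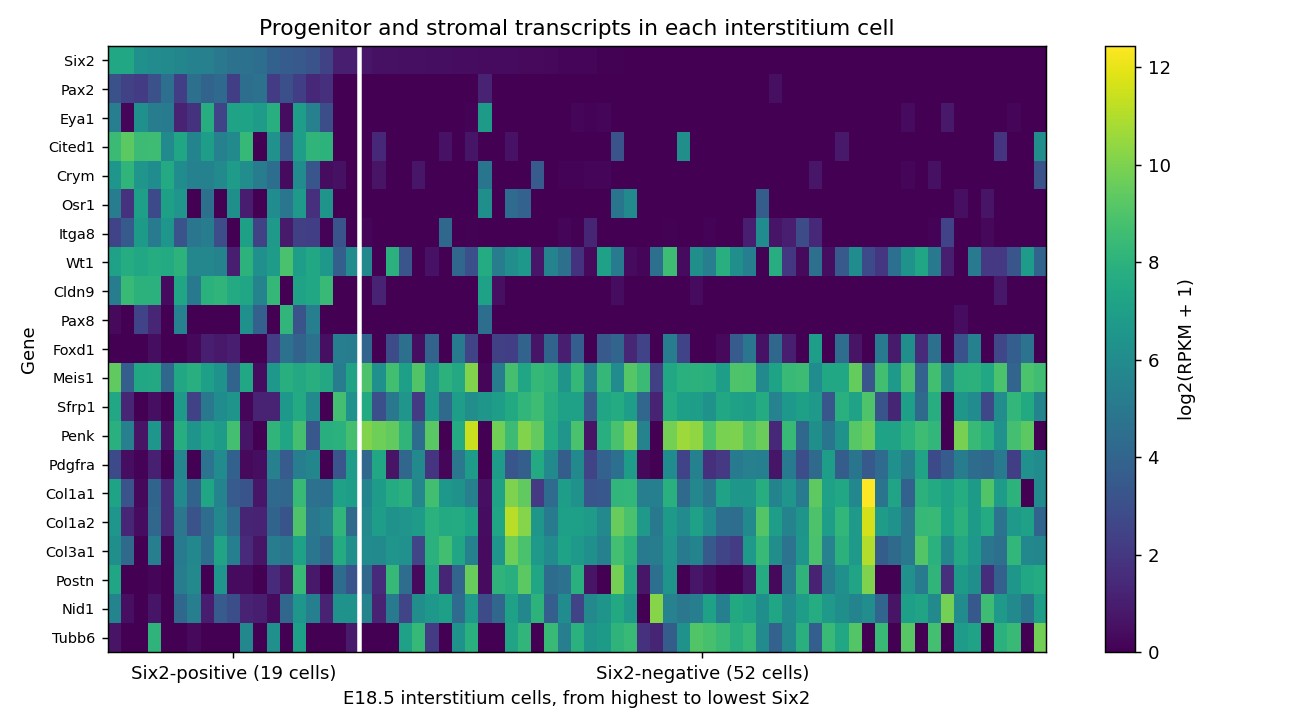
Level of 21 genes (rows, log2 of RPKM + 1 by colour) in each of the 71 E18.5 interstitium cells (columns), ordered from highest to lowest Six2 with the 19 Six2-positive cells left of the white line. Pax2 and Eya1 are nearly confined to the left block apart from 1 Six2-negative cell, while Meis1 and the collagens run across both blocks.

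The 10 genes highest in Six2-positive cells, among genes detected in at least 50% of them, reached beyond the known progenitor regulators. Cldn9 (chromosome 17, 23682584 to 23684026), a claudin of tight junctions, stood first with a difference of 5.59. Its values ran from 0 through 163 to 336 RPKM in Six2-positive cells and from 0 through 0 to 136 RPKM in Six2-negative cells, and it was detected in 15 and 2 of them. After Cldn9, Cited1, Crym (4.50) and Eya1 (4.05) came Sncaip, which encodes the synuclein-binding protein synphilin (3.80), and Phgdh, the first enzyme of serine synthesis (3.76). Fabp5, a fatty acid binding protein (3.73), Capn6, a calpain-family protein (3.60), Cd24a, a surface glycoprotein (3.60), and Myc, the growth-promoting transcription factor (3.49), completed the list. Phgdh and Cd24a were detected in most cells of both classes. As ratios of group means they differed by less, 1.65 for Phgdh and 1.22 for Cd24a. So did others of the 10, among them Fabp5 (1.31), Capn6 (1.56) and Sncaip (2.73), while Crym (5.10) and Eya1 (4.36) differed by more. Phgdh had medians of 298 RPKM in Six2-positive and 10.2 RPKM in Six2-negative cells and was detected in 18 of 19 and 37 of 52, and Cd24a was detected in 19 of 19 and 37 of 52.

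The Six2-positive cells did not lack stromal transcripts, but held less of them. Of 14 stromal and fibroblast genes, all tested, 11 lay at least 1 log2 unit lower and 0 lay that much higher, and the median difference was -1.51. Their mean, the stromal score, was 3.72 ± 1.64 in Six2-positive cells and 5.16 ± 1.35 in Six2-negative cells (SD). The 19 cells spanned 1.20 to 6.81 and the 52 spanned 0.60 to 7.67, so the classes overlapped over most of their range. Within pools the difference of scores was -0.93 in pool 2 and -1.74 in pool 3.

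Col1a1 (chromosome 11, 94936270 to 94951856), the main chain of type I collagen, ranged from 0.191 through 18.2 to 341 RPKM in Six2-positive cells and from 0 through 103 to 5539 RPKM in Six2-negative cells. It was detected in 17 of 19 Six2-positive cells (89.5%, 66.9 to 98.7) and 50 of 52 Six2-negative cells (96.2%, 86.8 to 99.5). The difference of its means was thus one of level, -1.89, with hardly any difference in presence. Col3a1, of type III collagen, was detected in 16 of 19 and 51 of 52 cells with a difference of -1.72. Pdgfra, the growth factor receptor of mesenchyme, was detected in 12 of 19 and 46 of 52 cells, and Postn, the matrix protein periostin, in 8 of 19 and 38 of 52. Penk, an opioid peptide precursor abundant in this stroma, had medians of 151 RPKM in Six2-positive and 355 RPKM in Six2-negative cells. Tcf21, a transcription factor of kidney mesenchyme, was the only member with a positive difference (0.31), and that difference was -0.40 in pool 3.

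Genes of the interstitium next to the cap differed less. Of 12, 11 were tested, of which 4 were lower and none was higher by 1 log2 unit. The score was 3.28 ± 1.22 in Six2-positive cells and 4.04 ± 0.87 in Six2-negative cells. Foxd1 ranged from 0 through 0.440 to 38.7 RPKM in Six2-positive cells and from 0 through 4.66 to 122 RPKM in Six2-negative cells, and was detected in 8 of 19 (42.1%, 20.3 to 66.5) and 33 of 52 (63.5%, 48.96 to 76.4). The 8 Six2-positive cells with Foxd1 had a median Six2 of 10.6 RPKM and none above 41.9, and the 11 without it had a median of 50.6. Meis1, a homeobox factor of the stroma, was detected in 18 of 19 and 51 of 52 cells, with medians of 171 and 238 RPKM in Six2-positive and Six2-negative cells. Sfrp1, a secreted Wnt antagonist, had the most negative difference on this list, -2.19, but -0.36 within pool 2 and -3.20 within pool 3. Fat4, an atypical cadherin of the stroma, differed by -1.34 and Aldh1a2, which makes retinoic acid, by -1.43.

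The 10 genes lowest in Six2-positive cells were mostly cytoskeletal, matrix and receptor genes. Tubb6 (chromosome 18, 67390731 to 67402749), a beta-tubulin, ranged from 0 through 0 to 269 RPKM in Six2-positive cells and from 0 through 114 to 870.0 RPKM in Six2-negative cells. It was detected in 4 and 39 of them, with a difference of -3.72. Ebf1, a transcription factor of stromal and other mesenchymal cells, differed by -3.25 and was detected in 5 of 19 and 39 of 52 cells. The list went on with Fhl2, a LIM-domain cofactor (-2.97), Nid1, a basement membrane linker (-2.83), Col1a2 (-2.79), Tes, a focal adhesion protein (-2.75), and S1pr3, a sphingosine 1-phosphate receptor (-2.63). Bgn, the proteoglycan biglycan (-2.61), Agtr2, the type 2 angiotensin II receptor (-2.58), and Ecm1, an extracellular matrix protein (-2.58), closed it. Not all matrix genes were lower. Of 16 further matrix genes, 5 were lower and 2 were higher, beside 2.46% lower and 16% higher over all 10452 genes. The 2 higher ones thus did not exceed the share of all genes. Vcan, the proteoglycan versican, was detected in 19 of 19 and 33 of 52 cells with a difference of 3.23. Tnc, tenascin C, differed by 1.13.

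**Figure D2:**
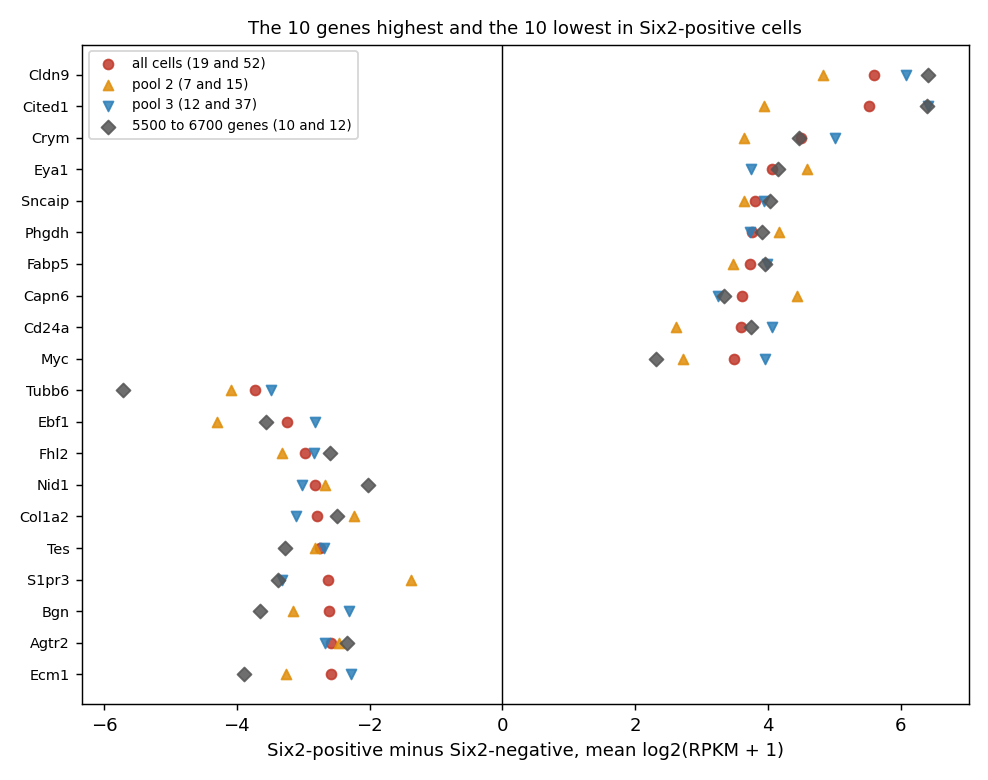
Difference of mean log2(RPKM + 1), Six2-positive minus Six2-negative, for the 10 highest and 10 lowest genes, in all cells, in each pool and in cells with 5500 to 6700 genes (cell numbers, Six2-positive then Six2-negative, in the legend). All 20 genes keep their side of 0 in these 4 sets. The genes were chosen by their difference in all cells. The other sets are parts of those cells, so keeping the side was largely built in. In a set not drawn here, cells with 5000 to 6000 genes, Fhl2 differs by 0.16. S1pr3 lies between -1.38 in pool 2 and -3.39 among cells with 5500 to 6700 genes.

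Progenitor and stromal transcripts were found together in the same captures, which are counted here as cells. Whether each such capture held a single cell was not tested. At least 7 of the 14 progenitor genes together with at least 10 of the 14 stromal genes were detected in 10 of 19 Six2-positive interstitium cells (52.6%, 28.9 to 75.6). The same held for 0 of 52 Six2-negative interstitium cells (upper limit 6.85%) and 0 of 62 Six2-positive cap cells (upper limit 5.78%). Only 1 of these 52 held at least 7 progenitor genes, and 0 of these 62 held at least 10 stromal genes. The 2 zeros were thus nearly set by those counts and are a description only. The 10 Six2-positive interstitium cells with both had Six2 of 8.08 to 172 RPKM, Col1a1 of 10.7 to 341 RPKM and Cited1 of 8.06 to 381 RPKM. Pdgfra was detected in all 10 and Foxd1 in 6, and 5 came from each pool. The highest stromal score of the class, 6.81, belonged to one of them, pool 3 cell 28, with Six2 at 9.99, Eya1 at 123 and Col1a1 at 341 RPKM.

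The remaining 9 Six2-positive cells fell to either side. Another 7 held at least 7 progenitor genes with fewer than 10 stromal ones. Neither Foxd1 nor Pdgfra was detected in any of the 7, and 6 of them came from pool 3. Pool 3 cell 41, for example, had 13 progenitor and 3 stromal genes, with Six2 at 73.5 and Col1a1 at 0.191 RPKM, yet Meis1 at 171 RPKM. Pool 2 cell 75 had 9 and 4, with Six2 at 21.4, Col1a1 at 0.707 and Meis1 at 0.338 RPKM. The other 2 cells were the pair with the lowest Six2, and held 3 and 4 progenitor genes with 10 and 12 stromal genes. In them Eya1 and Cited1 were at 0, Foxd1 was at 36.3 and 38.7 RPKM and Col1a1 at 118 and 138 RPKM. These divisions are ranges and not types, since 2 Six2-positive cells held 9 stromal genes and 4 held 10, and 2 held exactly 7 progenitor genes.

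**Figure D3:**
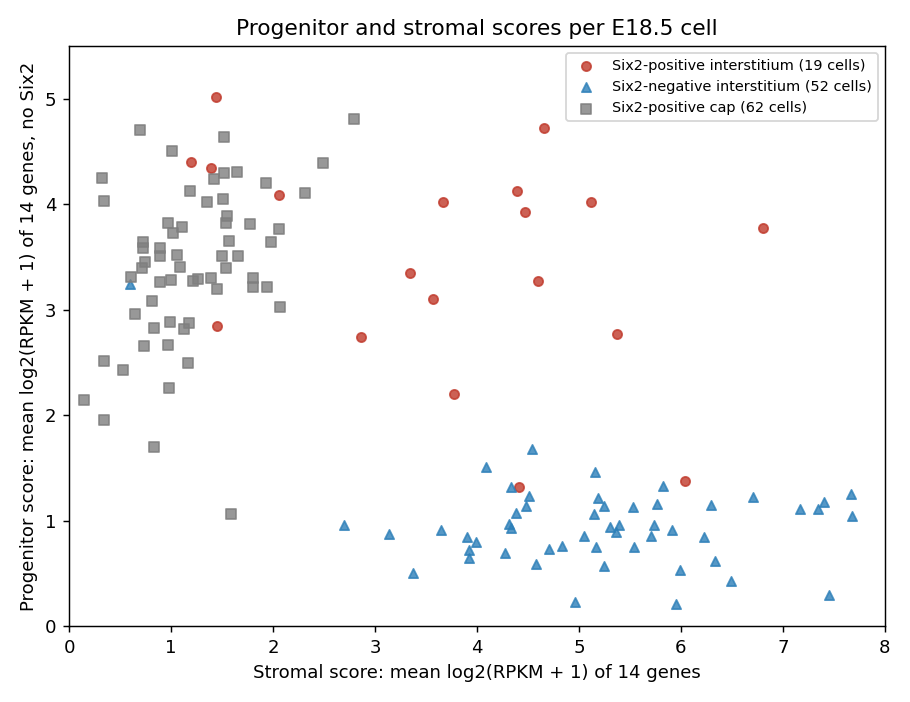
Progenitor score (vertical) against stromal score (horizontal), each the mean log2(RPKM + 1) of 14 genes, for every Six2-positive interstitium, Six2-negative interstitium and Six2-positive cap cell at E18.5. Most Six2-positive interstitium cells lie above the Six2-negative ones and to the right of the cap cells, and 2 of them lie among the Six2-negative cells. Others lie within the stromal range of the cap cells (0.15 to 2.80), such as pool 3 cell 41 (1.44) and pool 2 cell 75 (1.45).

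A single Six2-negative cell, number 5 of pool 3, held many progenitor transcripts with Six2 below 1 RPKM. Its Six2 was 0.305 RPKM, while Eya1 was at 110.0, Crym at 27.1 and Cldn9 at 136 RPKM. It had 9 progenitor and 2 stromal genes, with Col1a1 at 0.41 RPKM. It also had Wnt4, the signal that starts nephron differentiation, at 91.2 RPKM and Pax8, a factor of committed nephron cells, at 21.7 RPKM. The next highest Wnt4 among the interstitium cells was 12.4 RPKM, also in a Six2-negative cell.

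More genes were detected in the Six2-positive cells. With Six2 left out, they had from 3875 through a median of 6056 to 7195 genes at 1 RPKM or more, against 3085 through 4767.5 to 6685 genes in Six2-negative cells, and 2744 through 5457 to 7214 in Six2-positive cap cells. The classes overlapped, and the medians differed by 1700 genes in pool 2 and 1431 in pool 3. At least 6000 genes were detected in 10 of 19, 6 of 52 and 18 of 62 cells. The 10 Six2-positive cells with both programmes had 5934 to 6973 genes, the 7 with few stromal genes 4754 to 7195, and the 2 with few progenitor genes 3875 and 4517. The 6 Six2-negative cells with at least 6000 genes held 2 to 5 progenitor genes and no progenitor score above 1.33.

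**Figure D4:**
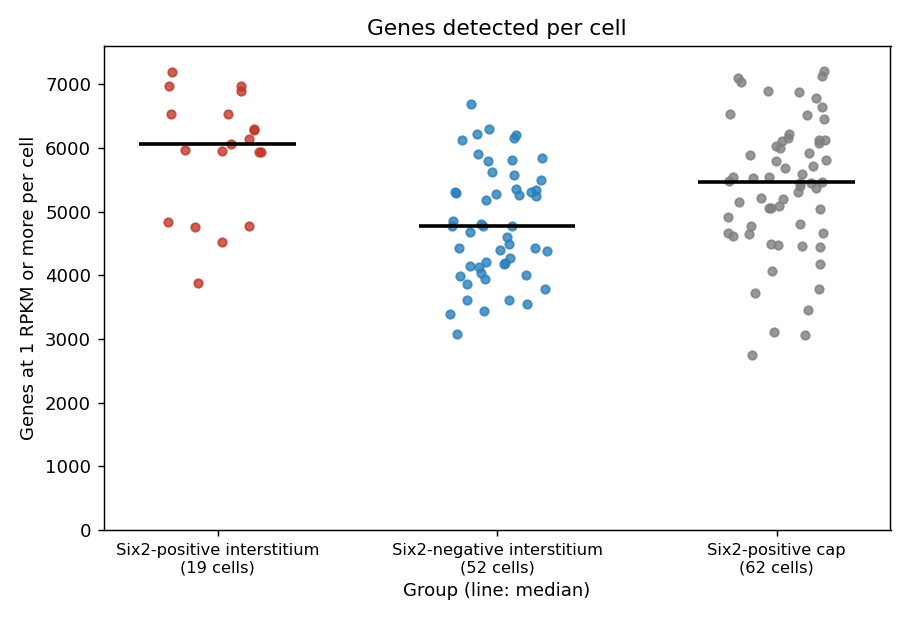
Number of genes at 1 RPKM or more in each cell (points) with the median (line) for the 19 Six2-positive interstitium, 52 Six2-negative interstitium and 62 Six2-positive cap cells. The Six2-positive interstitium cells have the highest median, 6056 genes, and 4 of the 5 lowest of them lie between 4517 and 4836.

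The progenitor difference was of like size in the 3 windows of gene number tried, while the stromal one was smaller in 1 of them. Median gene numbers came close only at 5500 to 6700 genes. They were 5947.5 in Six2-positive and 5342 in Six2-negative cells at 5000 to 6000 genes, and 5947.5 and 5178 at 4000 to 6500. In that last window the progenitor score differed by 2.49 and the stromal score by -1.65. Between cells with 5500 to 6700 genes, 10 Six2-positive (median 6099 genes) and 12 Six2-negative (median 6009), the progenitor score differed by 2.44 and the stromal score by -1.71, and the median over all genes was 0.06. Between the 4 Six2-positive and 16 Six2-negative cells with 5000 to 6000 genes, the progenitor score differed by 2.12, but the stromal score by -0.48, the score of the interstitium next to the cap by 0.09 and Col1a1 by -0.64. In the window of 5500 to 6700 genes 1444 of 10752 genes (13.4%) were higher and 1239 (11.5%) were lower by 1 log2 unit, a smaller excess of higher over lower genes than in all cells. After the median of 0.33 was taken from every difference, 877 genes (8.39%) were higher and 550 (5.26%) lower. Whether a cell with both programmes was 1 cell or 2 captured together was not tested, and no image or doublet call was used.

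The sex of the transcripts separated these cells from the labelled cap cells. Xist, which coats and silences an X chromosome in female cells, was below 1 RPKM in all 19 Six2-positive interstitium cells, with a highest value of 0.0844, and at least 1 Y-linked gene of Ddx3y, Uty, Eif2s3y and Kdm5d was detected in each. The same held for 51 of 52 Six2-negative interstitium cells. Xist was detected in 61 of 62 Six2-positive cap cells, of which 5 also had a Y-linked gene, and no cap cell of that class had a Y-linked gene without Xist. None of the 19 therefore carried the Xist level of the labelled cap cells, whose median was 43.1 RPKM. Sex goes with lineage label and date here, so cap or interstitium origin cannot be told from it.

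Set beside those cap cells, the Six2-positive interstitium cells had a like progenitor score and more stromal transcript. The progenitor score was 3.44 ± 1.04 in the 19 interstitium cells and 3.42 ± 0.74 in the 62 cap cells, and the stromal score was 3.72 ± 1.64 and 1.22 ± 0.56 (SD). Of 10639 genes, 935 (8.79%) were higher and 232 (2.18%) lower by 1 log2 unit in the interstitium cells. Of the 14 stromal genes 12 were higher and none lower. Col1a1 was detected in 17 of 19 interstitium and 7 of 62 cap cells (11.3%, 4.66 to 21.9), Col3a1 in 16 and 6, and Pdgfra in 12 and 1. Meis1 had medians of 171 RPKM in Six2-positive interstitium and 0.369 RPKM in Six2-positive cap cells. Of the 12 genes of the interstitium next to the cap, 6 were higher and none lower, and their score differed by 1.42. Foxd1, of that list, was detected in 8 of 19 and 23 of 62 cells, so the surplus did not extend to its presence. Six2 had medians of 24.6 and 76.6 RPKM, Crym differed by -1.75 and Cited1 by 2.25. Lineage label, sex, date and, for most cells, pool cannot be told apart in this comparison. Within pool 2, the 7 interstitium cells differed from the cap cells by -0.34 in progenitor score and 2.95 in stromal score.

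Replication genes were also higher in Six2-positive interstitium cells. Of 14 genes of S phase, 8 were higher and none lower by 1 log2 unit, with a median difference of 1.15. The score was 4.81 ± 1.46 in Six2-positive and 3.53 ± 2.06 in Six2-negative cells. Mcm6, a subunit of the replicative helicase, was detected in 18 of 19 and 33 of 52 cells and differed by 3.12, and Pcna, the polymerase clamp, by 2.08. Genes of G2 and M phase did not follow: 1 of 14 was higher, with scores of 3.64 ± 2.13 and 3.44 ± 2.55 in Six2-positive and Six2-negative cells. Between cells with 5500 to 6700 genes the G2 and M score differed by -2.46 and the S phase score by 0.98. The S phase difference, 1.28 in all cells, was 0.57 between cells with 4000 to 6500 genes, 0.16 between those with 5000 to 6000 genes and 0.13 as a ratio of group means. These cell cycle differences thus varied with the window of gene number, and the part of gene number in them was not tested.

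Position and imprinting genes differed in direction. Over all 10452 genes tested, 16% were higher and 2.46% lower by 1 log2 unit. Of 9 tested posterior Hox genes, which pattern the trunk, 3 were higher and none lower: Hoxa10 (2.26), Hoxc10 (1.67) and Hoxa11 (1.49). Of 10 imprinted genes, 5 were lower and 2 higher, the 2 being near the share of all genes. Plagl1, a zinc finger regulator of growth (-1.90), Meg3, a long noncoding RNA (-1.69), Cdkn1c, an inhibitor of cyclin-dependent kinases (-1.67), H19, another noncoding RNA (-1.10), and Igf2, a growth factor (-1.03), were lower. Ndn, the growth suppressor necdin (1.52), and Grb10, a receptor adaptor (1.01), were higher. Cdkn1c had medians of 93.9 RPKM in Six2-positive and 419 RPKM in Six2-negative cells and was detected in all 71. Some of these values were smaller between cells with 5500 to 6700 genes, at 0.92 for Hoxa10, 0.52 for Ndn and -0.57 for H19, and H19 differed by -0.30 in pool 2.

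Few genes of later or other cell types were involved. Over all 10452 genes tested, 16% were higher and 2.46% lower by 1 log2 unit. Counts below of 1 higher gene in a list, or 3 of 12, are thus not read as results about that list. Of 11 genes of committing nephrons 4 were tested, and Pax8 alone was higher: it was detected in 8 of 19 Six2-positive and 1 of 52 Six2-negative cells. Lhx1, of the renal vesicle, was detected in 0 of 19 and 1 of 52 cells, and Wnt4 had medians of 3.41 and 2.78 RPKM in Six2-positive and Six2-negative cells. Mean scores of the tubule, podocyte, endothelial, immune and erythroid lists were at most 0.21 over Six2-positive and 0.27 over Six2-negative cells. Single cells scored higher, most of all on the endothelial list among Six2-positive cells and on the podocyte list among Six2-negative cells. The podocyte score reached 0.41 in a Six2-positive and 1.34 in a Six2-negative cell, and the immune score 0.64 and 0.77. All 4 globin genes in the table were at 0 in both classes, as were the immune genes Ptprc, Tyrobp and C1qa. Not every member of these lists was at 0. Summed over the list, immune genes reached 82.2 RPKM in a Six2-positive and 202 RPKM in a Six2-negative cell. Erythroid genes reached 3.20 and 32.8 RPKM. In the ureteric list Krt18, a keratin, and Hoxb7 were higher by 1.34 and 1.77, while Ret was detected in 0 of 19 and 1 of 52 cells and Wnt9b was at 0. Of the FGF response genes none of 7 tested passed 1 log2 unit, and of the Wnt targets 1 of 6 did, the receptor ligase gene Znrf3 (1.41). Of 9 tested immediate early and stress genes 1 was higher, Ier2 (1.57). In the mural list Des, the filament protein desmin, was higher (1.19) and Rgs5, a pericyte regulator of G protein signalling, was lower (-2.37). Of 12 housekeeping genes 3 were higher and 1 was lower, and the median difference was 0.24. Of the 9 epithelial adhesion genes only Cd24a and Krt18 were tested, and both were higher.

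**Figure D5:**
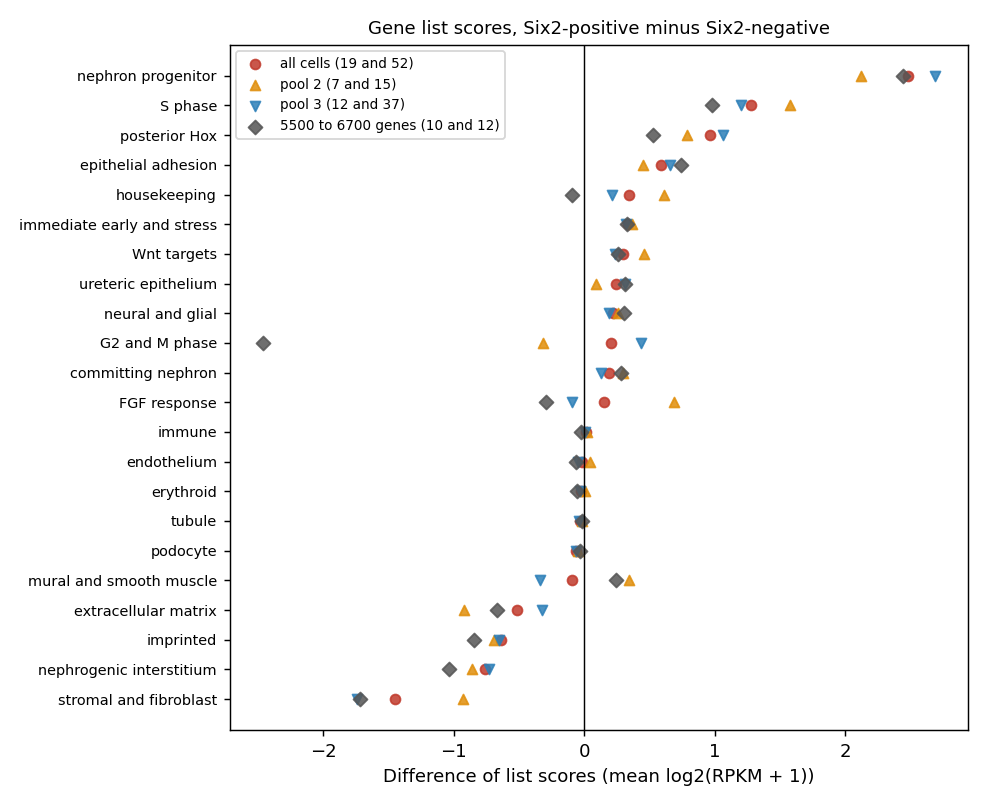
Difference of list scores (mean log2(RPKM + 1) over a list's members), Six2-positive minus Six2-negative, for 22 gene lists in all cells, in each pool and in cells with 5500 to 6700 genes. Nephron progenitor stands highest at 2.48 and stromal and fibroblast lowest at -1.45 in all cells, both on the same side of 0 in the other 3 sets, while G2 and M phase changes side.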

How the data were processed

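The authors deposited 1 table of RPKM for 36186 gene entries in 237 cells, aligned with TopHat to mm10 per the submitters' processing notes. The version, gene models and counting rule are not given in the sources used here, and the labels name the molecule as genomic DNA although the protocol is for RNA. Low values showed no whole-read steps, so depth per cell is unknown and intervals cover counting error only. RPKM sums ran from 341810 to 479361 in interstitium cells. Cells were split at 1 RPKM of Six2. Values were averaged as log2(RPKM + 1), so differences of low genes are understated, over genes that reached 1 RPKM in 10% of the 71 cells. Named genes are Six2, Pax2, Col1a1, members of 22 lists, and the 10 highest and 10 lowest genes detected in 50% of the higher class, without predicted gene models, LOC entries, mitochondrial, ribosomal protein and haemoglobin genes. Some list members are not reported here. Members and lists were chosen with earlier results of these data known. The highest correlation between 2 interstitium cells was 0.75. Scripts used Python 3.11.15, pandas 2.3.3, NumPy 2.4.6 and SciPy 1.17.1 and were tested on simulated data. Of the 20 leading genes, 12 matched a RefSeq promoter.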

Additional observations from a re-analysis of the deposited data

How the results depend on the processing

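Nephron progenitor, S phase and posterior Hox scores stayed higher, and stromal, matrix and imprinted scores lower, in Six2-positive cells under all 15 alternatives, S phase by as little as 0.13 and stromal by as little as -0.48. The counts of genes higher and lower by 1 log2 unit (1677 and 257) became 3671 and 530 with a pseudocount of 0.1, 218 and 71 with 10, 916 and 146 for Six2 above 0 against 0, 2548 and 693 in pool 2, and 877 and 550 less the median of all genes. Lower genes numbered 558 at 4000 to 6500 genes per cell, 1479 by ratio of group means, 1427 at 5000 to 6000 genes and 1239 at 5500 to 6700 genes. The last 2 windows and the median shift were added after seeing the data, and the 5000 to 6000 window holds 4 Six2-positive and 16 Six2-negative cells. In it Fhl2 turned to 0.16, the mural score differed by 0.49, G2 and M by -3.44 (-2.46 at 5500 to 6700) and posterior Hox by 0.29. The progenitor difference was 3.92 and 1.19 with pseudocounts of 0.1 and 10 and 1.28 for Six2 above 0, and posterior Hox 1.62 with 0.1. By ratio of means tubule, podocyte and endothelium differed by -0.23, -0.60 and -0.38, and less the median by -0.36, -0.39 and -0.34, with immune -0.31 and erythroid -0.35. Detection above 0 put Col1a1 in 100% of Six2-positive cells. Against Six2-positive cap cells, higher and lower counts were 1521 and 799 in pool 2, 2245 and 777 with 0.1 and 140 and 25 with 10, and the stromal difference 3.87 and 1.26 with 0.1 and 10. Apart from changes built into a setting, the cause was not tested. No paired analysis was possible because the cells carry no replicate numbers shared between the classes. Depth is unknown, no embryo is named, and the classes were split on a measured gene.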

Other observations

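The 12 cap cells below 1 RPKM of Six2 entered no comparison. Of these, 3 held at least 10 of the 14 stromal genes and 2 held at least 7 progenitor genes, and no cell held both. Col1a1 was detected in 7, Meis1 in 10 and Pax2 in 3 of the 12, and none had 6000 genes or more.

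Elavl4, which encodes a neuronal RNA-binding protein and was listed as a neural marker, was detected in 11 of 19 Six2-positive interstitium cells, 2 of 52 Six2-negative interstitium cells and 32 of 62 Six2-positive cap cells. Sox10 and Foxd3, of the same list, were at 0 in both interstitium classes. LOC100503946, an ATP synthase pseudogene, reached 20000 RPKM in 2 of 19 Six2-positive and 7 of 52 Six2-negative interstitium cells, and the 2 were the Six2-positive cells nearest the threshold.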
